A study of Homo sapiens with 29 samples.

Results

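Pladienolide B (PladB) was compared with its DMSO vehicle in 22Rv1 human prostate cancer cells that carry the C258A form of FOXA1. The comparison rests on 4 of the 29 ATAC-seq libraries of the series, chosen by their labels: C258A-FOXA1 with PladB at 100 nM (n = 2) and C258A-FOXA1 with DMSO at 0.1% (n = 2), each after 3 h. All 4 libraries came from cells that overexpress Y36C-PHF5A and hold a doxycycline (Dox)-inducible C258A-FOXA1, and all 4 received Dox. The remaining libraries served only as places where regions of this line could be looked up. They were from the C258A-FOXA1 line itself after Dox with the stereoprobe WX-02-23 at 20 µM (n = 2), from a sister line with inducible WT-FOXA1 in the same Y36C-PHF5A background (Dox with DMSO, PladB 100 nM or WX-02-23, and DMSO without Dox, n = 2 each) and from parental 22Rv1 cells (DMSO, PladB 10 nM, PladB 100 nM, and WX-02-23 or its stereoisomer WX-02-43 at 20 µM, n = 3 each). Endogenous FOXA1 is still present in both engineered lines, no C258A-FOXA1 library without Dox was analysed here, and the labels give neither the length of Dox exposure nor whether a line is 1 clone. The labels also do not say that replicates were separate cultures, so every p-value measures only the spread between these libraries.

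FOXA1 is a pioneer factor: its forkhead domain binds sites in closed chromatin and makes them accessible, and in prostate cells it opens many enhancers used by the androgen receptor. Pladienolide B is a natural macrolide that binds SF3B1, within the SF3B complex that recognises the branch point of introns, and blocks splicing. PHF5A lies beside SF3B1 at that binding pocket, and the Y36C change in it blunts the effect of such ligands on splicing. In ATAC-seq a transposase inserts adapters into accessible DNA, so that reads pile up at open regions and a peak caller lists them.

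The deposited data were 1 list of peaks per library. Peaks of the 4 lists that overlapped or touched were merged into 103028 regions on chromosomes 1 to 22, X and Y, and a list held a region when a peak overlapped it by at least 1 bp. Merging all 29 lists gave 166696 regions. Positions are in build hg19. Genes at these regions, and sequences and markers of the cell type, were not analysed here.

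The PladB lists were shorter than the DMSO lists. DMSO replicates held 84260 and 87171 peaks (85716 ± 2058, SD, n = 2). PladB replicates held 74554 and 77331 (75942 ± 1964, SD, n = 2). Each PladB list was thus shorter than each DMSO list. The mean difference was -9773 peaks, larger than the spread between replicates. A two-sided exact permutation test gave p = 0.33, and no design of 2 against 2 libraries can give less. The peaks covered 31.1 and 32.0 Mb of the genome with DMSO and 26.2 and 27.1 Mb with PladB, 84.4% as much on average.

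Depth moved with the treatment in this line. Read totals were not given, but the background rate that the peak caller used could be recovered from the deposited fold and p-values and serves as a relative depth. It was 0.7497 and 0.866 reads per base in the DMSO libraries and 0.546 and 0.587 in the PladB libraries, 70.2% of the DMSO mean. The lowest summit called had 6 reads in both DMSO lists and 5 in both PladB lists, and the median summit had 19 reads in both DMSO and 16 in both PladB lists. Relative to the background the median summit stood 25.3 and 22.0 times above it with DMSO and 29.3 and 27.3 times with PladB. These medians cover called peaks only and do not compare the same set of peaks. The lowest called summit also stood higher above the background in each PladB library than in each DMSO library. Depth and PladB cannot be told apart here, and the part of depth in the shorter lists was not tested. In the WT-FOXA1 line the PladB lists held 71121 and 88735 peaks at backgrounds of 0.789 and 0.939 reads per base, against 88140 and 85009 peaks at 0.869 and 0.844 with DMSO, so the groups overlapped in both measures. The mean change there was -6646 peaks, but 2160 without PladB replicate 1 and -15454 without PladB replicate 2. The 2 changes in list length differed by -3126 peaks between the lines (exact two-sided permutation p = 0.944, 36 arrangements of the line labels within treatment). Depth also moved with PladB 100 nM in parental cells. The background there was 0.935 ± 0.062 reads per base with DMSO and 0.705 ± 0.038 with PladB (SD, n = 3 each), without overlap. The parental lists held 94298 ± 3449 and 84547 ± 2558 peaks, 89.7% as many with PladB.

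**Figure D1:**
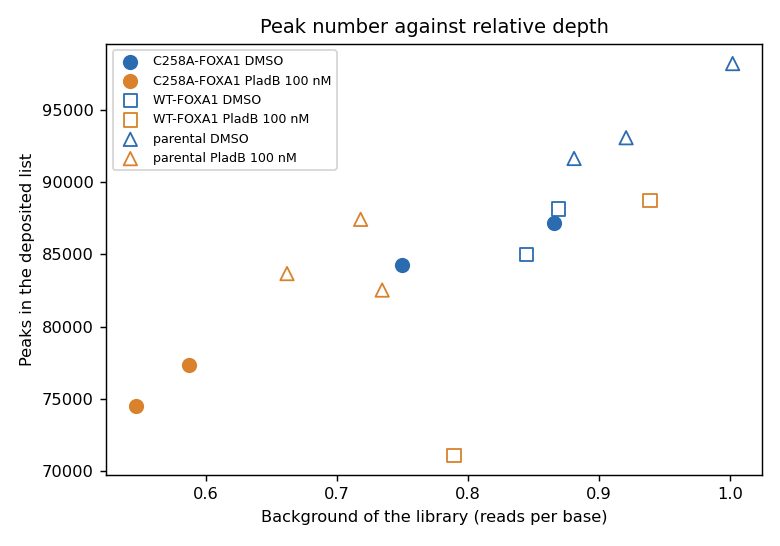
Number of peaks in each deposited list against the recovered background of its library in reads per base, with 1 point per library and filled circles for the C258A-FOXA1 line. The PladB libraries of that line lie lowest on the depth axis, at 0.546 and 0.587, below its DMSO libraries at 0.7497 and 0.866.

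Most of the accessible regions were shared between treatments. All 4 lists held 57330 regions, 55.6% of those held by any. A region was called lost when both DMSO lists and no PladB list held it, and gained in the reverse case. As deposited, 4967 regions were lost (4.82% of all regions) and 847 gained (0.822%), a ratio of 5.86 lost for each gained region. These counts have no test of their own.

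Because a longer list holds more weak peaks, all 4 lists were also reduced to the 74554 peaks with the smallest deposited p-value, the length of the shortest list. At this equal length 53849 of the 94178 regions still held by any list were in all 4 (57.2%), 2491 were lost (2.64%) and 1739 gained (1.85%). The excess of lost over gained regions then shrank to 1.43. Among the 11068 regions held by exactly 2 of the lists, 22.5% were in both DMSO lists, 15.7% in both PladB lists and 61.8% in 1 list of each treatment. With equal lists the WT-FOXA1 line had 1969 lost and 1717 gained regions (2.20% and 1.92% of its own regions), a ratio of 1.15, and parental cells at 100 nM had 889 and 533 (0.832% and 0.499%, 3 lists against 3), a ratio of 1.67. Whether these ratios differ between the lines was not tested. The lost and gained regions described from here on are those at equal length, and their choice fixes their values in these 4 lists, which are given as a description.

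How far the treatments differed was set against how far replicates differed. Of the peaks of DMSO replicate 1, 14.2% had no counterpart in DMSO replicate 2, 16.8% had none in PladB replicate 1 and 16.5% had none in PladB replicate 2. For DMSO replicate 2 the missing shares were 14.4% in the other DMSO list, 16.6% in PladB replicate 1 and 16.2% in PladB replicate 2. DMSO peaks were therefore missed more often in the PladB lists than in the other DMSO list, by about the same margin in all 4 pairings. PladB peaks did not show this: 15.6% and 15.9% of them had no counterpart in the other PladB list, while 14.2% to 14.6% had none in a DMSO list. By this measure PladB peaks were found again in a DMSO list at least as often as in the other PladB list.

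Class 4, the strongest regions, was kept in full, and nearly all differences lay among weak regions. Regions were placed in 4 strength classes, class 1 the weakest and class 4 the strongest, each spanning 25 percentiles of the rank of the deposited p-value within a list, averaged over the 2 DMSO lists. All 18091 class 4 regions held by both DMSO lists were held by both PladB lists. In class 3 both PladB lists held 98.6% of 17647 regions and neither held 14 of them (0.0793%). Class 2 was kept in both PladB lists at 80.5% of 17364 regions and lost at 712 (4.10%). In class 1 only 47.5% of 9198 regions were kept in both and 1765 were lost (19.2%).

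The same gradient was seen in the opposite direction. Of the regions held by both PladB lists, with classes from those lists, neither DMSO list held 1308 in class 1 (14.9%), 424 in class 2 (2.59%), 7 in class 3 (0.0409%) and 0 of 17941 in class 4. Between the 2 DMSO replicates themselves 42.6% and 43.1% of class 1 peaks went unmatched, against 46.6% to 47.5% of class 1 DMSO peaks in the PladB lists. In class 2 the corresponding values were 13.5% in both directions and 16.6% to 18.5%.

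**Figure D2:**
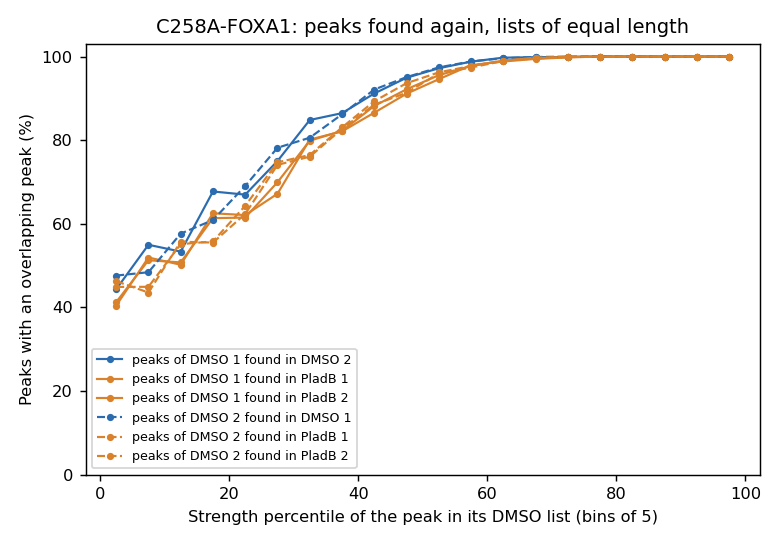
Percentage of DMSO peaks with an overlapping peak in another list (y axis) by strength percentile within the DMSO list (x axis, bins of 5), lists of equal length. Blue lines pair the DMSO replicates, orange lines a DMSO with a PladB list; in the bin from 15 to 20 the peaks of DMSO replicate 1 were found at 67.7% in DMSO replicate 2, and all lines meet at or near 100 above the 75th percentile.

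Within the regions held by all 4 equal lists, ranks moved little. The median difference in strength percentile, PladB minus DMSO, was -0.121, and the central 90% of regions lay between -19.2 and 16.9 percentile points. The strength class was the same in both DMSO lists at 67.3% of regions, in both PladB lists at 64.4%, and in a DMSO and a PladB list at 64.7% to 65.5%, so treatments disagreed about as often as the PladB replicates did. At 9931 regions both PladB percentiles were below both DMSO percentiles (18.4% of 53849) and at 9137 both were above (17.0%). Gaps of more than 25 percentile points between the groups were present at 264 regions in the lower and 128 in the higher direction. With classes taken here from the mean percentile of all 4 equal lists, 222 of the 264 lay in class 2.

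Peaks were narrower with PladB. At the 57330 regions held by all deposited lists the median width was 371 and 374 bp in the DMSO libraries and 336 and 342 bp in the PladB libraries. The groups did not overlap. The median log2 width ratio, PladB over DMSO, was -0.11, or 0.03 once widths were centred on the median of each library, and 73.9% of regions had a lower mean log2 width with PladB. For widths, classes came from the mean percentile in the 4 deposited lists. The ratio was -0.15 in class 1, -0.17 in class 2, -0.10 in class 3 and -0.08 in class 4, where 78.4% were narrower. Splitting of a region into several peaks was more frequent with PladB, at 3300 and 3180 regions against 2276 and 2154 with DMSO. At the 50912 regions with exactly 1 peak in each list the median log2 ratio was -0.10.

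No single region passed a test of width. A limma fit on log2 width over the 57330 regions called 0 wider and 0 narrower (0% each, Benjamini-Hochberg adjusted p below 0.05, smallest adjusted p 0.376), while 4998 narrower and 538 wider regions had an unadjusted p below 0.05. On simulated widths with the same design this fit recovered 78.5% of regions changed 3-fold and 0% of those changed 2-fold or 1.5-fold, so changes up to 2-fold at a single region were not detectable. The widest gaps in log2 width between the groups, by the rule for named regions, included weak regions. At chr10:75670761-75671392 the peak measured 525 and 610 bp with DMSO and 150 and 151 bp with PladB. At chrX:146570218-146571066 it measured 738 and 814 bp against 209 and 223 bp. On the wider side, chr14:44058525-44059060 had peaks of 150 bp in both DMSO lists and of 427 and 429 bp in the PladB lists, where its summits held 9 and 12 reads against 8 and 9. None of these was called. Summit positions moved as little between treatments as between replicates. The median distance between summits was 28 bp within DMSO, 31 bp within PladB and 29 to 30 bp between them. Narrower peaks went with the lower depth of the PladB libraries, whose part in the widths was not tested.

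The lost regions were weak and narrow. Their median percentile was 18.3 and 17.3 in the 2 DMSO lists, their median summit held 12 and 13 reads, and 95% of them had at most 27 and 26.5 summit reads. The merged regions spanned 266 bp at the median, against 452 bp for regions held by all 4 lists, where the median DMSO summit held 27 and 28 reads. Of the lost regions 2285 (91.7%) also had no peak in either PladB list as deposited. PladB replicate 1 set the equal length and was not reduced, and PladB replicate 2 was reduced only from 77331 to 74554 peaks. The cut therefore nearly fixes this share, which gives no support to the lost calls.

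Gained regions were of the same rank and, in the shallower PladB libraries, smaller in reads. The median percentile was 16.7 and 16.8 in the PladB lists, the median summit held 9 reads in both, and the merged region spanned 261 bp. A summit of 10 reads or fewer was found at 72.0% and 65.6% of them, against 28.1% and 18.9% of the lost regions in the DMSO lists. In the longer deposited DMSO lists, with 84260 and 87171 peaks, 745 of the gained regions (42.8%) had no peak. The other gained regions had a DMSO peak that the reduction to equal length removed. Because the DMSO lists were cut further than the PladB lists, this share cannot be compared with that of the lost regions.

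The 10 strongest lost regions are named by their mean DMSO percentile. The first, chr4:819813-820062, had 28 and 29 summit reads in the DMSO libraries and percentiles of 59.1 and 56.2. It was held by both WT-FOXA1 DMSO lists and both lists without Dox. The second, chr17:68998801-68999212, had 21 and 16 reads and was held by both WT-FOXA1 DMSO lists with Dox and by no list without Dox and no parental DMSO list. The third, chr4:20538679-20538980, had 20 and 16 reads and the same pattern. The next were chr8:59720510-59720818 (21 and 16 reads), chr7:33017272-33017552 (16 and 18), chr9:109838468-109838924 (18 and 17) and chr6:115108126-115108469 (15 and 19). The list ends with chr11:109007069-109007415 (19 and 15), chr6:135390932-135391201 (17 and 17) and chr6:168963836-168964163 (16 and 17). Of these 10 regions, 7 were held by no list without Dox and no parental DMSO list, and 9 were held by both C258A-FOXA1 libraries treated with WX-02-23.

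Among the 10 strongest gained regions the first was chr5:38994478-38994745, with 11 and 17 summit reads in the PladB libraries. It was held by all 3 parental DMSO lists, 1 of 2 WT-FOXA1 DMSO lists and no list without Dox. The second, chr10:99239817-99240095, had 11 and 15 reads and was held by all 3 parental DMSO lists and both lists without Dox. The third, chr7:113429440-113429741, had 12 reads in each PladB library and was held by only 1 of the other 25 libraries. Further down were chr18:27851758-27852002 (10 and 14 reads), chr3:163425556-163425805 (12 and 11) and chr14:31633315-31633576 (14 and 10). In all, 8 of the 10 were held by at least 1 parental DMSO list and 2 by no parental DMSO list and no list without Dox. Among all 1739 gained regions, 80.4% had a peak in at least 1 of these lists as deposited.

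Large differences in rank at kept regions were rare. The largest gap with lower PladB ranks was at chr8:70677286-70677687, with 27 and 28 summit reads in DMSO and 10 in each PladB library, a move from percentiles 60.3 and 60.3 to 5.05 and 1.32. At chr13:34653550-34654077 the summits held 22 and 22 reads in DMSO and 7 and 8 in PladB, and the peak measured 443 and 499 bp against 168 and 300 bp. Chromosome 13 also held chr13:110543367-110543913 (25 and 22 reads against 8 and 8) and chr13:97403662-97404188 (18 and 21 against 7 and 7), and the fifth was chr9:5186472-5186760 (21 and 22 against 8 and 8). Of these 5 regions, 4 had a peak in both WT-FOXA1 DMSO lists with Dox and in no list without Dox and no parental DMSO list.

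The largest gap with higher PladB ranks was at chrY:23803851-23804216, with 9 and 10 summit reads in DMSO and 14 and 15 in PladB, or percentiles of 2.04 and 5.95 against 58.5 and 59.9. It was followed by chr18:31864632-31864968 (11 and 11 reads against 16 and 16), chr8:121963467-121963751 (9 and 10 against 12 and 13), chr2:101918481-101918803 (10 and 11 against 15 and 14) and chr4:15884276-15884565 (9 and 10 against 12 and 16). All 5 had more summit reads in the shallower PladB libraries. The rank that chose them is computed from these reads and the background, so this is a description only. Only 1 of the 5 was absent from all lists without Dox and all parental DMSO lists.

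That named lost regions were often held only with Dox led to a further lookup, chosen after these values were seen. In the WT-FOXA1 line, whose libraries took no part in calling the C258A-FOXA1 regions, DMSO lists with and without Dox were compared at equal length. Of 88824 regions held by any of these lists, 6935 were opened with Dox (both Dox lists, neither list without Dox, 7.81%), 3686 were closed with Dox (4.15%) and 46349 were held in all 4. Dox-opened regions are thus sites with a peak in the sister line only after induction of FOXA1.

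Dox-opened regions had fewer peaks with PladB in the C258A-FOXA1 line. They held a peak at 79.3% and 80.1% in the DMSO lists and at 75.01% and 75.14% in the PladB lists, all of equal length. The means were 79.7% ± 0.56 and 75.1% ± 0.092 (SD, n = 2 each), and the difference of -4.63 percentage points exceeded that spread (two-sided exact permutation p = 0.33, the smallest possible). Dox-closed regions differed by -0.895 points (40.9% and 42.0% against 40.2% and 40.9%) and regions held with and without Dox by -0.325 points (96.1% and 96.4% against 95.9% in both). The share at Dox-opened regions minus that at regions held with and without Dox was -16.8 and -16.3 points in the DMSO lists and -20.9 and -20.8 points in the PladB lists, without overlap (exact permutation p = 0.33, the smallest possible). Within the Dox-opened regions 196 were lost (2.83%) and 71 gained (1.02%). Dox-closed regions had a higher lost share, with 123 lost and 123 gained (3.34% each). Of regions held with and without Dox, 214 were lost (0.462%) and 165 gained (0.356%). These shares are of each whole set, although the C258A-FOXA1 lists held only 6285 of 6935 Dox-opened and 2694 of 3686 Dox-closed regions. The 2.64% lost over all regions is of those held by any C258A-FOXA1 list, so it has another base.

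The size and order of these changes depended on the setting. With 50% of a region covered, also at equal length, the changes were -8.39 points at Dox-opened, -4.06 at Dox-closed and -3.48 at regions held with and without Dox. With the deposited lists they were -9.67, -14.5 and -1.97 points, so that the Dox-closed regions then differed most.

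**Figure D3:**
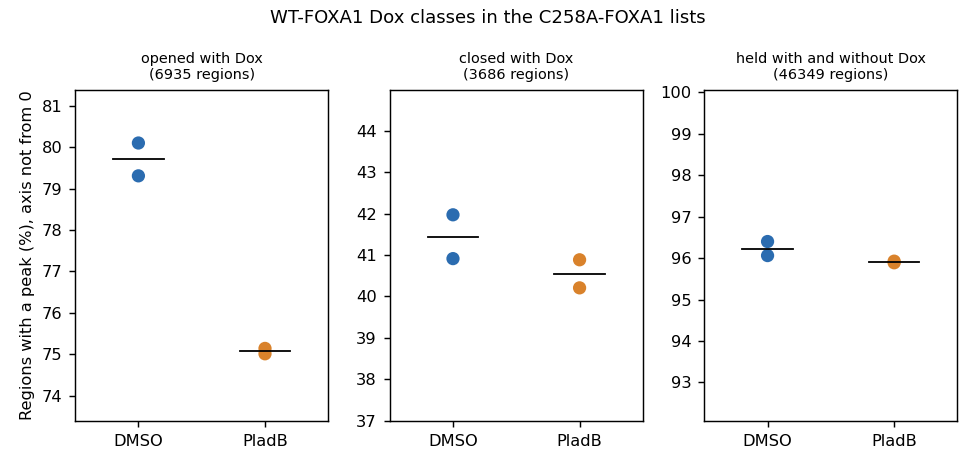
Share of regions with a peak in each C258A-FOXA1 list at equal length, for 3 classes of regions defined in the WT-FOXA1 line; points are libraries, bars are means, and each y axis spans 8 percentage points and does not start at 0. Dox-opened regions lie at 79.3% and 80.1% with DMSO and at 75.01% and 75.14% with PladB.

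Ranks at regions kept in all 4 lists differed in the same direction. Of 4295 Dox-opened regions held by all 4 C258A-FOXA1 lists, 1310 had both PladB percentiles below both DMSO percentiles (30.5%) and 494 had both above (11.5%), against 18.4% and 17.0% over all shared regions. The median percentile of Dox-opened regions was 51.4 in both DMSO lists and 47.0 and 47.3 in the PladB lists. Regions held with and without Dox had medians of 67.8 in both DMSO lists and 68.2 and 68.1 in the PladB lists, with 17.0% lower and 17.6% higher. Dox-closed regions had 16.4% lower and 16.0% higher among the 470 held by all 4 lists.

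Dox-opened regions were weaker on average, so they were also compared within strength classes taken from the WT-FOXA1 DMSO lists. In class 1 the share with a peak differed by -5.34 points at Dox-opened regions and by -1.29 points at regions held with and without Dox. In class 2 the differences were -5.59 and -0.759 points, and in class 3 they were -1.76 and -0.0354 points. Among regions held by all 4 C258A-FOXA1 lists, 28.6%, 30.5%, 32.3% and 26.8% of Dox-opened regions in classes 1 to 4 had lower PladB percentiles, and 10.3% to 13.6% had higher ones. For regions held with and without Dox the lower shares were 15.5%, 16.3%, 16.7% and 18.1%, and the higher shares 19.2%, 17.7%, 17.9% and 17.2%. The excess of lower ranks at Dox-opened regions was therefore present in each strength class, from weak to strong. The range of the -4.63 points without any 1 of the 8 libraries was -5.03 to -3.93.

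The same sets were looked up in parental cells, which carry no inducible FOXA1. Dox-opened regions held a peak in 16.7% ± 0.24 with DMSO and 15.3% ± 0.57 with PladB 100 nM (SD, n = 3 each), a difference of -1.40 points. Dox-closed regions went from 72.4% ± 0.20 to 67.6% ± 1.7, or -4.79 points, and regions held with and without Dox differed by -0.767 points. Each gave p = 0.1 in a two-sided exact permutation test, the minimum for 3 against 3 libraries. With DMSO, Dox-opened regions held a peak at 16.7% in parental cells and at 79.7% in the C258A-FOXA1 line. Changes in points therefore stand on unlike bases. Taken relative to its base, the parental change at Dox-opened regions was not the smaller one. Parental PladB libraries were shallower than parental DMSO libraries, and the part of depth was not tested. The parental and engineered lists come from separate processing folders by their peak names, so line and batch cannot be told apart.

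The lost and gained regions also differed in where else they were open. Presence elsewhere was taken here from the deposited lists. The WT-FOXA1 lists without Dox held 69814 and 67195 peaks, against 88140 and 85009 with Dox and DMSO. The part of list length in these shares was not tested. Of the lost regions 640 (25.7%) had a peak in a WT-FOXA1 DMSO list with Dox and in no list without Dox and no parental DMSO list. For gained regions this number was 169 (9.72%), and among the regions held by all 4 lists the share was 10.0%. Classes came here from the DMSO lists for lost, the PladB lists for gained and all 4 lists for shared regions. Among class 1 regions alone the shares were 22.4% of 1765 lost, 10.2% of 1308 gained and 15.6% of 3777 regions held by all 4 lists. Above class 1 they were 33.7% of 726 lost, 8.35% of 431 gained and 9.59% of 50072 regions held by all 4. Conversely 80.4% of gained and 55.6% of lost regions had a peak in at least 1 library without Dox or parental DMSO library. The median number of the other 25 libraries that held a region was 9 for lost, 16 for gained and 25 for the regions in all 4 lists.

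Looked up in the other 25 libraries with all 29 lists at 62832 peaks, the gained set was the more frequent in cells without Dox. Parental DMSO lists held 37.4% ± 0.69 of the gained and 27.1% ± 0.48 of the lost set (SD, n = 3), a gap of 10.3 points. The lists of the WT-FOXA1 line without Dox held 34.8% and 34.6% of the gained and 27.7% and 27.2% of the lost set. With Dox and DMSO that line showed the reverse order, at 27.3% ± 0.16 of the gained and 29.5% ± 0.85 of the lost set (SD, n = 2). The C258A-FOXA1 libraries with WX-02-23 stood furthest on this side, holding 32.3% and 33.0% of the lost and 24.5% and 26.5% of the gained set. At this length, of the other 25 libraries, all with Dox other than WT-FOXA1 with PladB thus held more of the lost set, and all without Dox more of the gained set. With deposited lists the order turned around in the WT-FOXA1 DMSO libraries with Dox, which held 59.2% and 55.6% of the lost and 61.0% and 57.3% of the gained set.

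**Figure D4:**
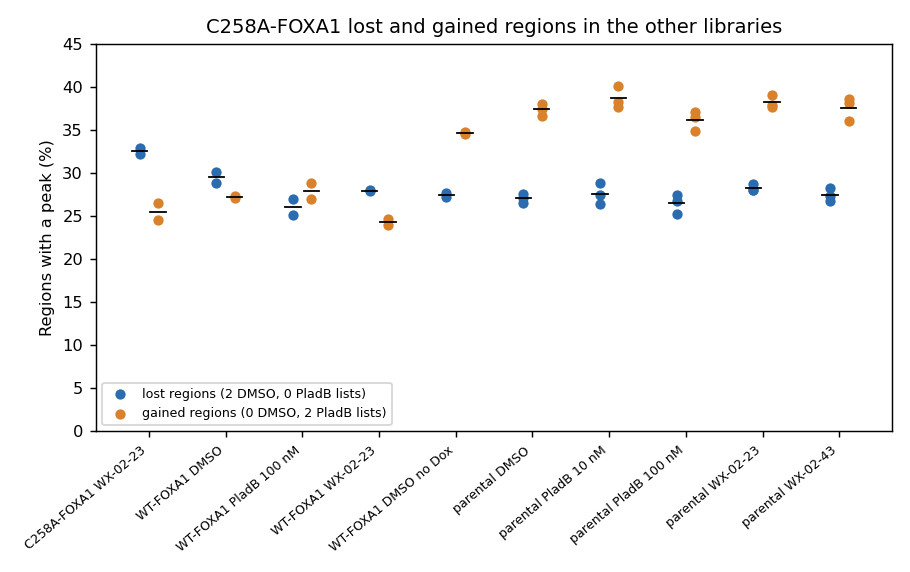
Share of the 2491 lost and 1739 gained C258A-FOXA1 regions with a peak in each of the other 25 libraries, all lists at 62832 peaks; points are libraries and bars group means. Gained regions lie above lost ones in all parental groups and without Dox, and below them in the Dox groups with DMSO or WX-02-23 at this list length.

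Whether the same regions held fewer or more peaks with PladB in the other lines was tested on libraries that did not choose them. In the WT-FOXA1 line, with its 4 lists at equal length, 40.2% and 39.3% of the lost set had a peak with DMSO and 35.1% and 37.7% with PladB. In parental cells, with their own lists at equal length, the lost set had a peak at 40.6%, 40.8% and 40.3% with DMSO and 38.9%, 38.7% and 36.2% with PladB 100 nM. Every PladB library lay below every DMSO library of its line. In parental cells the PladB libraries were also the shallower ones, and the part of depth was not tested. The mean change over both lines was -2.99 points. Over the 120 arrangements of treatment within lines the two-sided exact permutation p was 0.0167, the smallest they can give. After Benjamini-Hochberg adjustment over 3 lookups the exact permutation p was 0.05, which is not below the threshold of 0.05. Alternatives gave -8.87 to -2.17 points.

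For the gained set the change was -0.441 points (exact permutation p = 0.567, adjusted p = 0.567). It was 1.32 points in the WT-FOXA1 line (38.99% and 38.2% against 38.6% and 41.2%) and -2.20 points in parental cells (57.3%, 57.7% and 57.5% against 56.2%, 56.6% and 53.02%). Gained minus lost changed by 2.55 points (exact permutation p = 0.05, adjusted p = 0.075). The change was 0.678 points with deposited lists of the other lines (exact permutation p = 0.7), 0.994 points with sets from the deposited C258A-FOXA1 lists (exact permutation p = 0.317) and 0.472 points in parental cells alone (exact permutation p = 0.3). In the WT-FOXA1 line alone this contrast went from -1.20 and -1.12 points with DMSO to 3.46 and 3.49 points with PladB, without overlap (exact permutation p = 0.33, the smallest possible). In parental cells it was 16.9 ± 0.26 and 17.4 ± 0.59 points (SD, n = 3 each), which overlapped.

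Beside these changes, regions held by all 4 C258A-FOXA1 lists had a peak at 93.4% in both groups of the WT-FOXA1 line and at 85.7% and 84.8% in parental DMSO and PladB. Their class 1 members had one at 70.9% and 72.3% in the WT-FOXA1 line and at 71.4% and 68.8% in parental cells, so the parental difference at these weak regions was close to that at the lost set. At 10 nM in parental cells the lost set changed by 0.241 points and the gained set by 0 points (exact permutation p = 1 for both).

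Few single regions were called in the same way in more than 1 line. Of the 2491 lost regions, 94 (3.77%) were also lost in the WT-FOXA1 line, where 1.6% of all regions were, and they made up 5.69% of the regions lost there. However, 68 lost regions (2.73%) were gained in that line, where 1.46% of all regions were. Of the 1739 gained regions, 49 (2.82%) were gained and 53 (3.05%) lost in the WT-FOXA1 line. Lost and gained regions were thus each called in both directions there; these differences were not tested, and the sets are weaker than the regions as a whole. In parental cells 20 lost regions (0.803%, against 0.540% of all) were lost as well, and 6 (0.241%, against 0.240% of all) were gained. Of the gained regions, 12 (0.690%) were lost and 11 (0.633%) gained in parental cells. These differences were not tested either.

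With deposited lists, 3 regions were lost and 0 gained in all 3 lines. Of the C258A-FOXA1 regions, 37 were lost in both other lines and 1 was gained in both. Over all regions 4.82% were lost and 0.822% gained in the C258A-FOXA1 line as deposited. Whether the overlap exceeds these shares was not tested. The 3 lost in all lines were chr7:124673662-124673865, with 13 summit reads in each C258A-FOXA1 DMSO library, chr7:14808950-14809227, with 10 and 8, and chr2:85673068-85673357, with 9 and 10. None had more than 13 summit reads, and all were held by the 3 parental and both WT-FOXA1 DMSO lists.

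Lost regions were spread over the genome. They made up 2.56% of the regions held by both DMSO lists on chromosome 19 and 2.62% on chromosome 22, and 5.26% on chromosome 4, 5.35% on X and 5.84% on Y, the last from 9 of 154 regions. Gained regions made up 1.63% of those held by both PladB lists on chromosome 22 and 4.36% on chromosome 13. Over the 24 chromosomes the lost share went with the share of class 1 regions (Pearson r 0.866, Spearman rho 0.840), as did the gained share less closely (r 0.685, rho 0.743). Of the 2491 lost regions, 1765 are themselves class 1 and count in that share, so part of the lost correlation is built in. Chromosomes share the same libraries and these are descriptions. The distance from a lost region to the nearest other region was 15.2 kb at the median, against 16.4 kb for gained and 13.1 kb for regions in all 4 lists. Among 2906 bins of 1 Mb, 1626 held at least 1 lost region and the highest count was 8, of 34 regions in both DMSO lists, in the bin on chromosome 7 from 84000001 to 85000000.

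**Figure D5:**
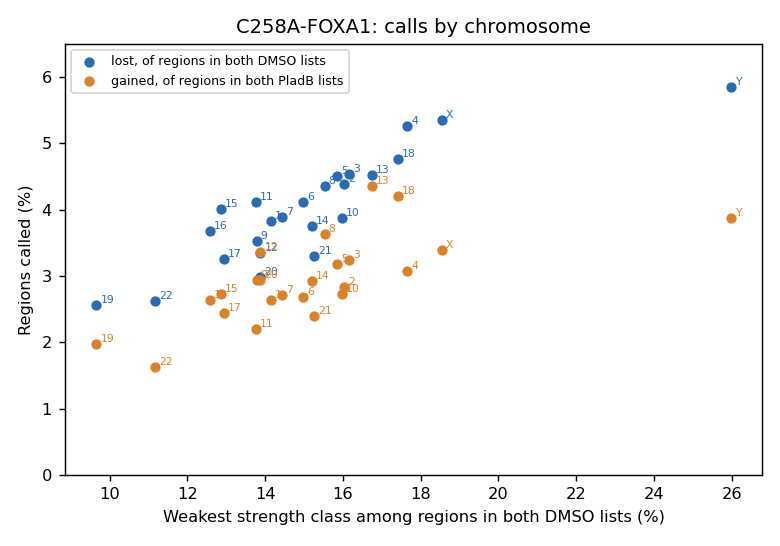
Lost (blue) and gained (orange) regions in percent of the regions held by both lists of the group that has them (y axis), against the share of the weakest strength class among regions in both DMSO lists (x axis), 1 labelled point of each colour per chromosome. Chromosome 19 is lowest on the x axis with 2.56% lost, and Y is highest with 5.84% lost.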

How the data were processed

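Per the submitters' processing notes, reads were aligned with Bowtie2 to hg19 and peaks called with MACS2. The sources used here do not give versions, options, duplicate removal or read shifting. Each deposited list gives a fold enrichment (a ratio), −log10 p and q-values, and the summit distance. The lowest deposited −log10 q was 2.00, and the narrowest peak 150 bp. These values only ranked, filtered or described peaks within a list.

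Whole summit reads and local background were solved from the deposited fold and p-value, (reads + 1) / (background + 1), for 100% of peaks (tolerance 0.001 in −log10 p). The lowest background was taken as relative depth. Percentiles rank −log10 p within an equal list. Counting error of the reads themselves is not included in any p-value.

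Tests were exact permutations over libraries and limma 3.58.1 on log2 width. Python 3.11.15, numpy 2.4.6, pandas 2.3.3 and R 4.3.3 were used. Peaks on chrM (3 or 4 in each of the 4 C258A-FOXA1 PladB and DMSO lists) were left out. As a check of the code, peaks were removed at 200 regions from both PladB lists and at 200 others from both DMSO lists. Among the 103028 regions, 100% of these were then called lost or gained. The removal fixes this outcome, so it gives no detection rate.

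The members, sets and rules were chosen with earlier results of these data known. Named regions were the 10 highest by mean percentile among lost and among gained regions without any deposited peak in the other group, the 5 largest falls and rises and the 5 largest narrowings and widenings by gap between groups (part are printed), and regions called in all 3 lines. The lookup of Dox classes, its alternatives and the common summit height were chosen after seeing the data. Planned gene and marker lists were not analysed here, because no hg19 annotation was used and coordinates were not converted.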

Additional observations from a re-analysis of the deposited data

How the results depend on the processing

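For 12 results 135 alternatives were run, and 113 kept their direction, their side of the threshold or, for counts, lay within 1.5 times the reported count. The 113 include limma counts of 0 throughout and replicate-block values that stay the same by construction, so the tally overstates stability. Leaving out 1 library relaxes the rule to 1 list on that side, so counts grew by construction: gained regions ranged from 2100 to 4672 and lost regions from 8821 to 12976 in deposited lists, and from 3944 to 6695 and from 5578 to 7258 at equal length. Without PladB replicate 1 or 2, gained regions at equal length outnumbered lost ones, at 6695 against 5605 and 6357 against 5578. Windows reaching 100 bp either way from the summit gave 1630 gained regions in deposited lists; the cause was not tested. The difference in list length ranged from -11228 to -8317 peaks without 1 library, was -10856 at a q-value of 1e-05 or below and -9325 at a common summit height. That height, 9.15 times the background, removed few peaks: it left 84209 and 86227 with DMSO and 74554 and 77232 with PladB. The median log2 width ratio ranged from -0.11 to -0.09, and limma called 0 regions in every alternative, with 3842 to 6793 regions at an unadjusted p below 0.05 when 1 library was left out. Centring widths on each library's median moved the median log2 ratio to 0.03.

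In the other lines, the change at the lost set ranged from -3.65 to -2.17 points without 1 library, the gained set from -1.10 to 0.249, and their contrast from 2.41 to 2.70. The gained set reversed in the WT-FOXA1 line alone (1.32 points), without WT-FOXA1 PladB replicate 1 (0.249) and without parental PladB 100 nM replicate 3 (0.129). Without that parental library the lost set (-2.57 points) and the contrast (2.70 points) had an exact permutation adjusted p of 0.025, below the threshold; the cause was not tested. With deposited lists of the other lines the contrast was 0.678 points, and with sets from the deposited C258A-FOXA1 lists 0.994 points. With deposited lists the change was -9.67 points at Dox-opened and -14.5 points at Dox-closed regions, the reverse of their order at equal length.

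Replicate numbers did not pair the libraries: deviations of same-numbered libraries correlated at 0.0035 for log2 width and 0.013 for percentile over 2 pairs. With the replicate number as a block the value stayed by construction at -9773 peaks for list length, at 847, 4967, 1739 and 2491 regions, at -0.11 for width and at -2.99, -0.441, 2.55 and -4.63 points for the lookups, and limma called 0 regions with a smallest adjusted p of 0.550. With 2 libraries a group, no exact test within the C258A-FOXA1 line can pass the threshold, and regions with fewer than 5 or 6 summit reads were not detectable.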
